A study of Mus musculus with 13 samples.

Results

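Induced embryonic Sertoli cells made from mouse tail tip fibroblasts (TTF-ieSC) were compared with the tail tip fibroblasts (TTF). The 2 TTF-ieSC arrays held transdifferentiated cells with the transgenes Nr5a1, Wt1, Dmrt1, Gata4 and Sox9, kept for 6 months in DME with 2% FBS and doxycycline. The 2 TTF arrays held wild-type fibroblasts with a tdTomato transgene, grown for 3 passages in DME with 10% FBS. Features with a gene symbol and a log2 signal above the array median on at least 2 of these 4 arrays were taken, which gave 22392 of the 31465 named features and 14761 of the 20738 genes. The 9 other arrays of the 13 served for reference. They held embryonic fibroblasts with an empty vector (MEF, 2 arrays), induced cells made from them with the same 5 factors (MEF-ieSC, 1 array), uncultured male gonad at 14.5 dpc, immature Sertoli cells from 19 dpc testis after 3 days of culture and mature Sertoli cells at 8 weeks after 7 days of culture (2 arrays each). MEF were grown for 3 passages in 10% serum, and MEF-ieSC were kept for 6 months in 2% serum. Both Sertoli cultures were in 10% serum, unlike the induced cells. The sources used here do not give the vector and its promoter, the number and age of the animals, or whether an induced line was 1 clone. Fibroblasts kept as long in 2% FBS with doxycycline but without factors were not among the groups, so the factors, the time in culture, the serum and the doxycycline cannot be told apart.

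Sertoli cells are the somatic epithelial cells of the testis cords. In the embryo they arise from the surface epithelium of the gonadal ridge, which expresses WT1, GATA4 and the nuclear receptor NR5A1, and SOX9 and later DMRT1 fix and keep their fate. They surround the germ cells, signal to other testis cells through desert hedgehog and anti-Müllerian hormone, rest on a laminin and collagen IV basement membrane and seal the cords with tight junctions. Fibroblasts are mesenchymal cells that secrete fibrillar collagen, elastic fibre proteins and proteoglycans, and those of the tail keep the posterior Hox code of their place of origin.

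The values are log2 signals, with a median of 7.488 and a 75th percentile of 10.473 on every array. The table holds no detection flags, so a value under the median is dim by rank only. Replicate arrays differed by a root mean square of 0.182 in TTF and 0.205 in TTF-ieSC, within the 0.140 to 0.266 of the other groups with replicates. Differences were tested with limma over 7 groups and are given as log2 difference ± SE (n = 2 arrays a group). The threshold for a call was an adjusted p of 0.05, and only called genes are said to rise or fall. Calls were frequent, at 11736 of 14761 genes (79.5%). A further size rule of at least 1 log2 unit left 2655 genes higher (18%) and 2596 lower (17.6%) in TTF-ieSC, and the list counts below use that rule unless stated. Together these were 5251 genes (35.6%). Differences of 3 log2 units or more were found for 595 genes higher (4.03%) and 843 lower (5.71%). Whether replicate arrays came from separate cultures or animals is not stated, so a p-value here speaks of array-to-array spread, possibly technical.

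Of the 5 factors, Wt1 was far higher and the others were not. Wt1, a zinc finger factor of gonad, kidney and mesothelium, read 6.77 and 6.85 in TTF and 16.48 and 16.49 in TTF-ieSC. The groups were wide apart, and the difference of 9.67 ± 0.07 was called (adjusted p = 2.59e-13, limma). Nr5a1, which drives steroidogenic and Sertoli genes, rose by 1.09 ± 0.08, from 8.25 and 8.31 to 9.37 and 9.36, against a mean of 13.89 in immature Sertoli cells. Sox9, the testis-determining target of SRY, fell by 1.52 ± 0.07, from 11.33 and 11.28 to 9.79 on both arrays. Dmrt1, which keeps Sertoli fate, read 9.09 and 9.11 in TTF and 9.17 on both TTF-ieSC arrays (adjusted p = 0.397). Gata4 stayed under the median on all 4 arrays and was not tested, at 7.16 and 7.21 in TTF and 6.70 and 7.15 in TTF-ieSC. Whether a feature reads the transgene, the endogenous transcript or both is not stated, and these cannot be told apart.

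The 15 largest rises code for secreted, junctional, membrane and nuclear proteins. The 250 bases before the start of 3 of these genes, and of the gene with the largest fall, are printed as examples that hold a match to a motif of a factor class used for induction. They are from RefSeq on GRCm38.p6, 5′ to 3′ on the gene's strand, with the match in capitals, and positions count back from the start site. The Nr5a1 type motif searched was AAGGTCA, and in Amhr2 (chr15:102445117-102445366, plus strand) it begins at -231. The SOX type motif was AACAAT, which begins at -236 in Gpm6a (chr8:54779184-54779433, plus strand) and at -73 in Wfdc18 (chr11:83708754-83709003, plus strand). The WT1 type motif was GTGGGAG, and in Grem1 (chr2:113758649-113758898, minus strand) it lies in the reverse direction from -227. The GATA type motif was AGATAA, which none of the windows of the 15 largest rises or falls held. Matches to AAGGTCA in the reverse direction were also found in Cited1, another of the largest rises, from -217 and in Meg3, another of the largest falls, from -141, and these windows are not printed. Both strands were searched, and a match is a description of the letters.
Amhr2: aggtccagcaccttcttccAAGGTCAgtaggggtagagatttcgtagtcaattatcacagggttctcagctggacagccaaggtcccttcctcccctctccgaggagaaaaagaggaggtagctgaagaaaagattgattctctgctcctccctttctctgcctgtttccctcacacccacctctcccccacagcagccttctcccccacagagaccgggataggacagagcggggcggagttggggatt
Gpm6a: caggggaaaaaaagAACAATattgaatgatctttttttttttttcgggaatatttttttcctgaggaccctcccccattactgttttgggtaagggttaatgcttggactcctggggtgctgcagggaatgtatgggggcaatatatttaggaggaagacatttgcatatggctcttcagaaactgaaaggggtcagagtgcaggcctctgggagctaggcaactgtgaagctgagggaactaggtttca
Wfdc18: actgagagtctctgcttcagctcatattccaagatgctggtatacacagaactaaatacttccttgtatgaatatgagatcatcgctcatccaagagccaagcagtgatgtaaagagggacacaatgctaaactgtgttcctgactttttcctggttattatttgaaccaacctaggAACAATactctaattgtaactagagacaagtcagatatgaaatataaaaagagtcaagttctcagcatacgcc
Grem1: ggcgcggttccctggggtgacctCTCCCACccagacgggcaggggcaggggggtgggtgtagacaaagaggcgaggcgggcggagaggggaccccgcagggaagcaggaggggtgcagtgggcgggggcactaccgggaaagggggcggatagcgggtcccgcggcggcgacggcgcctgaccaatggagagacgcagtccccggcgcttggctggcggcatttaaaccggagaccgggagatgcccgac

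Promoter windows of 300 bases, 250 before to 50 after a start, were found for 11 of the 15 largest rises and 6 of the 15 largest falls. AAGGTCA was in 2 of the 16 windows of the rises (12.5%), against 3.40% of the 14844 windows of all tested genes and 4.72% of all 32851 RefSeq windows. The falls held it in 1 of their 7 windows (14.3%), so it was not particular to the rises. Its share was 3.5% over genes higher by 1 or more and 3.9% over genes lower by 1 or more. AACAAT was in 2 of the 16 windows of the rises and 0 of the 7 of the falls, against 6.16% of tested genes and 10.7% of all windows. GTGGGAG was in 2 of the 16 (12.5%), against 11.2% over tested genes and 9.73% of all windows. It stood in 321 of 2635 windows of genes higher by 1 or more (12.2%) and in 311 of 2573 windows of genes lower by 1 or more (12.1%). No test was made of these shares.

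Among the 15 largest rises were a receptor, a ligand and an ion channel. Amhr2, the type II receptor for anti-Müllerian hormone, read 8.65 on both TTF arrays and 16.86 and 16.96 in TTF-ieSC, a rise of 8.26 ± 0.07 (adjusted p = 3.34e-13, limma). Its level in immature Sertoli cells was 14.83, below both induced arrays. Bmp7, a secreted bone morphogenetic protein, rose from 7.05 and 7.28 to 15.48 and 15.45, against 11.52 in immature Sertoli cells. The ATP-gated channel gene P2rx2 read 7.98 and 7.77 in TTF and 17.67 and 17.73 in TTF-ieSC, and 10.46 in immature Sertoli cells. Tesc, a calcium-binding protein enriched in the fetal testis, rose by 8.78 ± 0.08 from 8.35 and 8.38 to 17.13 and 17.17. The TTF-ieSC arrays lay above both TTF arrays by over 8 log2 units for each of these genes.

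Epithelial and membrane genes were next. Cgn, the tight junction plaque protein cingulin, rose from 6.34 and 6.32 to 14.58 and 14.51, near the level of immature Sertoli cells. Krt18, a keratin of simple epithelia, rose by 9.24 ± 0.08 to 18.10 and 18.13, above the 17.47 of immature Sertoli cells. Gpm6a, a neuronal membrane glycoprotein, read 6.00 and 5.87 in TTF and 14.48 and 14.50 in TTF-ieSC, while immature Sertoli cells were at 8.37. Slc34a3, a renal sodium-phosphate transporter, rose to 15.81 and 15.73 from TTF values of 7.61 and 5.16, which were themselves apart. In the native groups the means of Slc34a3 were 6.99 in immature and 6.37 in mature Sertoli cells and 8.17 in the gonad.

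Among nuclear and imprinted genes, the homeobox gene Tlx2 went from 6.47 and 6.19 to 14.97 and 14.98, and lay under the array median in all 3 native groups. Cited1, a transcriptional coactivator of the kidney and gonad, rose by 8.48 ± 0.08 to 17.03 and 17.16, against 15.31 in immature Sertoli cells. Mest, a paternally expressed imprinted gene, read 9.41 on both TTF arrays and 17.96 and 17.95 in TTF-ieSC, and its 12 member features gave differences of 7.19 to 9.0. The immature Sertoli cells were at 11.48 for Mest and the gonad at 16.72, so the induced cells were above both. Among secreted proteins, Ptgds, the prostaglandin D synthase, had the largest rise at 11.23 ± 0.06, from 6.82 and 6.88 to 18.03 and 18.14. Wfdc18, a small whey acidic protein, rose to 15.72 and 15.67 from values at the array median, 7.44 and 7.49. With every value under the array median raised to it, the 15 rises measured 5.69 (Cst9) to 10.60 (Ptgds), and all were called. Raising values in this way also takes away their spread between replicates, so these calls add nothing to those above.

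**Figure D1:**
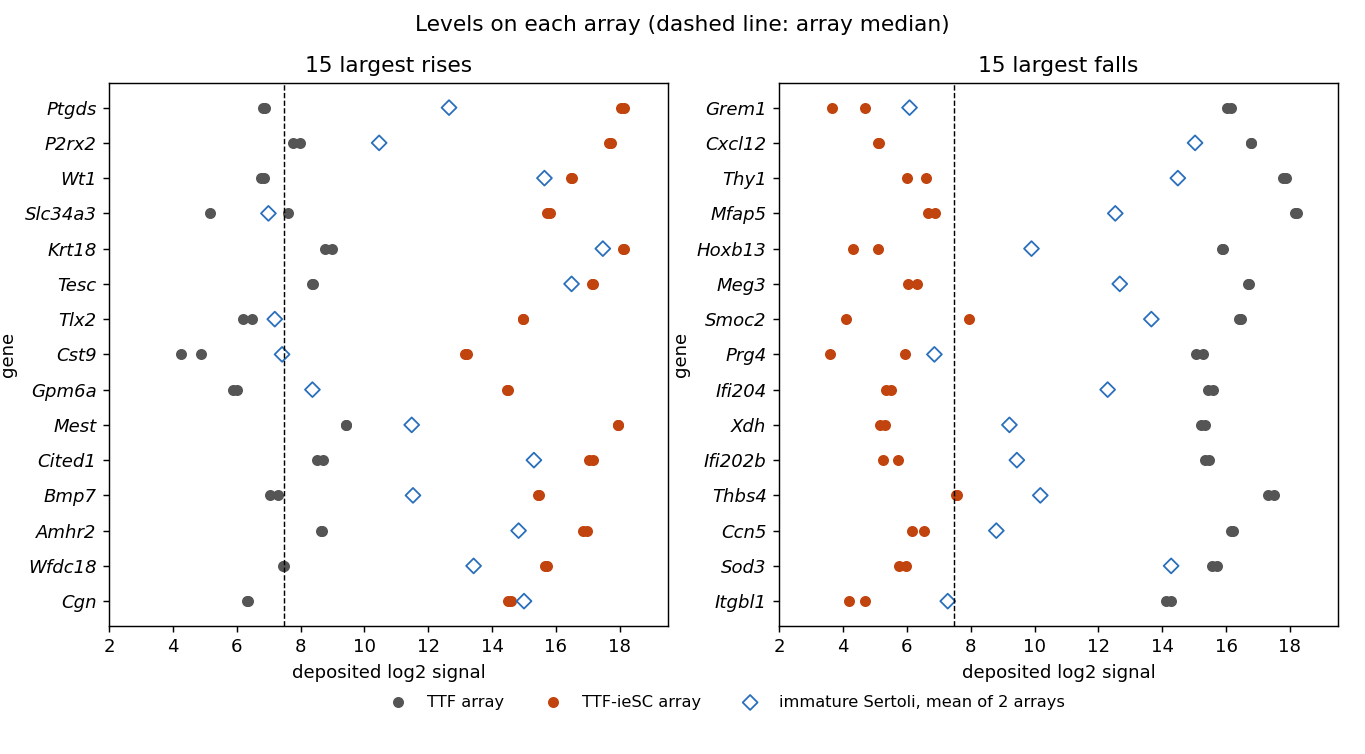
Deposited log2 signal (x axis) of the 15 genes with the largest rise (left) and the 15 with the largest fall (right) in TTF-ieSC. Grey points are TTF arrays, orange points TTF-ieSC arrays, diamonds the mean of 2 immature Sertoli arrays and the dashed line the array median of 7.488. The genes were chosen so that the TTF and TTF-ieSC points do not overlap. The diamonds lie near the TTF-ieSC points for Krt18 and Cgn but near the TTF points for Slc34a3 and Tlx2.

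The largest falls were in secreted antagonists, matrix and surface proteins and a tail homeobox gene. Grem1, a secreted BMP antagonist, went from 16.15 and 16.03 to 3.65 and 4.67, a difference of -11.93 ± 0.26 (adjusted p = 6.37e-11, limma). Both TTF-ieSC values lie under the array median, where the level has no known floor, and the difference was -8.60 with such values raised to the median. Cxcl12, a chemokine of stromal cells, fell from 16.77 and 16.79 to 5.12 and 5.08, whereas immature Sertoli cells were at 15.03. Hoxb13, the most posterior Hox gene of its cluster, fell from 15.90 and 15.86 to 4.30 and 5.09. In MEF Hoxb13 was already near the median, at 7.72, as was Prg4, a lubricating proteoglycan, at 7.86. Xdh, the purine oxidase xanthine dehydrogenase, fell from 15.21 and 15.34 to 5.31 and 5.14.

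Smoc2, a calcium-binding matrix protein, had the least even fall, from 16.42 and 16.47 to 4.10 and 7.93. The difference of -10.43 ± 0.89 was called, and 1 of the 2 induced arrays stayed just above the median. Thbs4, a matrix thrombospondin of tendon, fell from 17.49 and 17.31 to 7.56 and 7.54. Itgbl1, an integrin-related secreted protein, gave -9.77 on its brighter feature and -3.77 on the other. Meg3, a maternally expressed long noncoding RNA, likewise ranged from -10.53 to -3.75 over 3 features, so the size of these falls depends on the feature while the direction does not.

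A switch between dim and bright was rare. Over both arrays of each group, 138 genes were under the median in TTF and above the 75th percentile in TTF-ieSC, and 254 genes were the reverse. Of the 138 switched on, 126 were also above the 75th percentile on the MEF-ieSC array, against 8995 of all 14761 genes, while 35 were above it on both immature Sertoli arrays, against 8794 of all genes, and 27 were under the median there, against 1060. Of the 254 switched off, 0 were above the 75th percentile on the MEF-ieSC array, 147 were above it in both MEF arrays, against 8871 of all genes, and 91 in both immature Sertoli arrays. GTGGGAG stood in 25 of 123 promoter windows of the switched-on genes (20.3%), against 28 of 227 (12.3%) for the switched-off genes and 11.2% for all tested genes. AGATAA stood in 15 of these 123 windows (12.2%), against 6.93% over tested genes and 11.2% over all windows. AAGGTCA was in 5 of the 123 (4.07%) and AACAAT in 7 (5.69%), against 3.40% and 6.16% over tested genes. These sets were chosen on the same signals and carry no test.

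Sertoli markers moved unevenly. Of 30 fetal Sertoli markers, 23 could be tested, 16 were higher and 4 lower by the size rule, with a median of 2.63 against 0.07 over all genes. The list's median was 5.93 over the 16 markers left when 2 of the 4 arrays had to exceed the 75th percentile, the stricter filter. Both filters let in genes dim in 1 group only because they are bright in the other, as with Ptgds and Cst9. Such genes had to differ, so list counts and medians, here and below, depend in part on this selection. The higher median under the stricter filter adds nothing to the first. With no size rule, 18 markers were called higher and 4 lower, against 42.6% and 36.9% of all genes. Cst9, a testis cystatin, rose by 8.61 ± 0.58, from 4.88 and 4.25 to 13.16 and 13.20. That was above the 7.42 of immature and 12.85 of mature Sertoli cells and below the 16.92 of the gonad. Krt8, the partner keratin of Krt18 and named after its values were seen, rose by 6.55 ± 0.09 to 12.89 and 12.86, against 16.26 in immature Sertoli cells. Dhh, the hedgehog ligand of Sertoli cells, rose from 9.66 and 9.61 to 15.65 and 15.68, above the 14.30 of immature Sertoli cells. Ttr, the thyroid hormone carrier, went from 6.64 and 6.69 to 14.80 and 14.64 but was at 6.52 in immature Sertoli cells, so its induced level exceeded the native one.

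Beside Sox9, the markers that fell code for 2 secreted ligands and a kinase. Inhbb, the activin and inhibin beta B subunit, fell by 5.54 ± 0.08, from 15.94 and 15.91 to 10.39 and 10.38, while immature Sertoli cells were at 14.66. Pak3, a p21-activated kinase, fell by 2.55 ± 0.30 from 12.34 and 12.39 to 9.72 and 9.92. Kitl, the KIT ligand that germ cells need, read 13.75 and 12.95 in TTF and 12.06 and 11.38 in TTF-ieSC, so it fell by 1.62 ± 0.35 (adjusted p = 0.00191, limma). Its replicates were apart in both groups, but the groups did not overlap. Amh was under the median on all 4 arrays, at 6.38 and 6.50 in TTF and 7.30 and 7.42 in TTF-ieSC, and was not tested.

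Tested genes of mesothelium and podocytes, other cell types that express Wt1, were mostly higher. Of 14 such genes 9 were tested, Wt1 itself among them, 7 were higher and 2 lower, with a median of 5.58. Members such as Wt1, Upk3b and Podxl were under the array median on both TTF arrays. They entered the tested set through the TTF-ieSC arrays alone and so had to be higher, and the count and median depend in part on that filter. The list members Nphs1, Ptpro and Tcf21 were under the median on all 4 arrays and were not tested, while Podxl rose by 5.60 ± 0.31. These members were named after their values were seen, and podocyte genes were thus mixed. Msln, the mesothelial surface protein mesothelin, rose from 11.67 and 11.72 to 17.25 and 17.30, above the 12.87 of immature Sertoli cells. Upk3b, an uroplakin of mesothelium, rose by 6.32 ± 0.19 to 12.82 and 12.97, against 7.76 in immature Sertoli cells. Lrrn4, a leucine-rich membrane protein, went from 5.05 and 7.56 to 13.35 on both arrays. Krt19, a keratin of simple epithelia and mesothelium, was the opposite, falling from 13.96 and 13.87 to 8.80 and 8.74, and Synpo, the podocyte actin protein synaptopodin, fell by 3.05 ± 0.09. In these bulk samples, fewer cells of a type and less RNA per cell cannot be told apart.

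**Figure D2:**
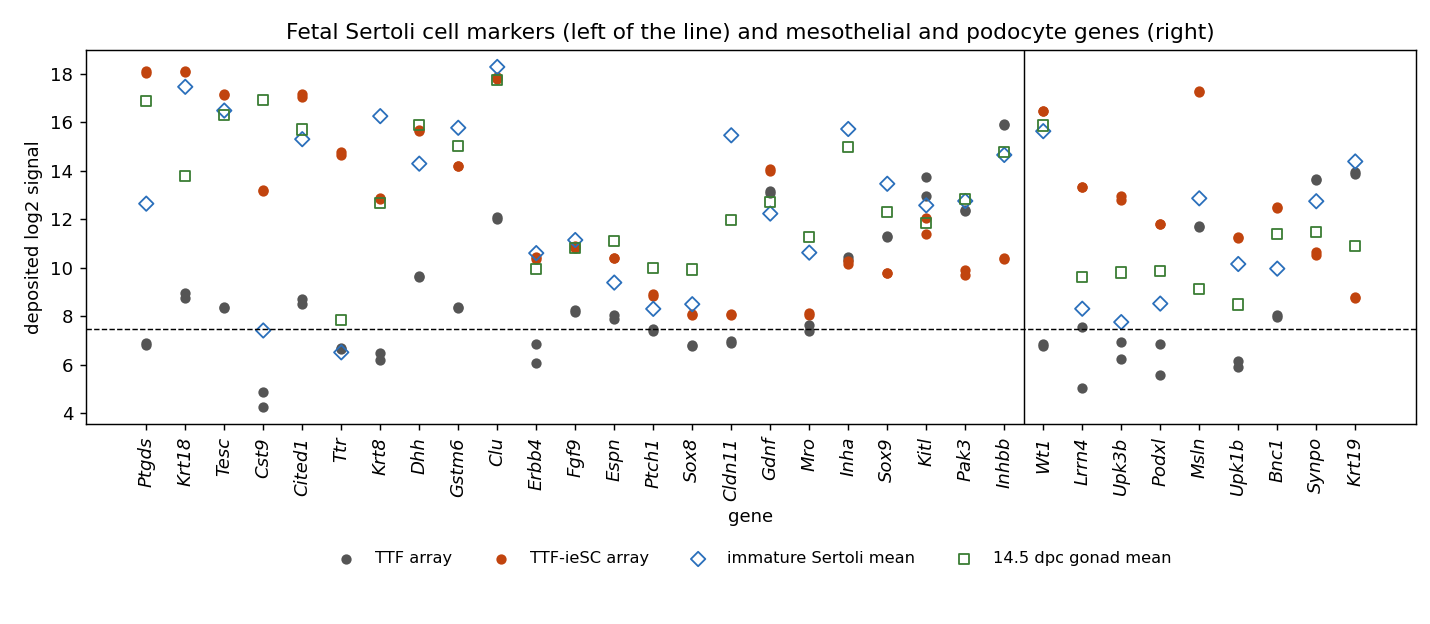
Deposited log2 signal (y axis) of the tested fetal Sertoli cell markers, ordered by their difference (left of the vertical line), and of the tested mesothelial and podocyte genes (right). Grey points are TTF arrays, orange points TTF-ieSC arrays, blue diamonds immature Sertoli means, green squares means of the 14.5 dpc gonad and the dashed line the array median. Orange points stand above grey ones from Ptgds to Sox8 and below them from Sox9 to Inhbb, and for Msln and Upk3b they stand above the native means.

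Markers of other cells the cultures could hold were mixed, and their part in the results was not tested. Germ cell and pluripotency genes were mostly dim: 13 of 31 were tested, 5 higher and 1 lower. Lin28a, an RNA-binding protein of early cells, rose by 2.90 ± 0.07 to 11.90 and 11.98, and Ddx4, the germ cell helicase, fell by 4.50 ± 0.40 to values under the median. Macrophage markers gave 2 higher and 3 lower of 10 tested, with Cd52, a surface glycopeptide also made in the epididymis, up from 5.91 and 6.45 to 12.33 and 12.35. The defining macrophage genes Adgre1 and Cd68 and complement C1qa did not reach the tested set.

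Endothelial markers gave 3 higher and 7 lower of 17 tested. Esam, a junctional adhesion protein, rose by 4.74 ± 0.06, whereas Tek, an angiopoietin receptor, fell by 3.45 ± 0.10 and Pecam1 read 8.79 and 8.79 in TTF and 8.58 and 8.58 in TTF-ieSC (adjusted p = 0.0634). Leydig markers gave 1 higher and 1 lower of 5 tested, and the side-chain cleavage enzyme Cyp11a1 was under the median on all 4 arrays. Granulosa markers gave 3 higher and 5 lower of 10 tested. Rspo1, a Wnt agonist of the ovary, rose from 7.75 and 7.96 to 14.57 and 14.51, and Fst, an activin-binding protein, fell by 4.15 ± 0.11. Foxl2, the ovarian forkhead factor, read 15.04 and 14.94 in TTF and 14.42 and 14.24 in TTF-ieSC, and its call (adjusted p = 0.0464) was lost under several alternatives.

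Keratinocyte markers gave 2 higher and 2 lower of 9 tested, with the basal keratins Krt5 and Krt14 near the median and not called. Lor, the cornified envelope protein loricrin, rose by 5.24 ± 0.07 to 13.13 and 13.23. Muscle and adipocyte markers gave 0 higher and 4 lower of 7 tested, including Fabp4, a lipid carrier of adipocytes, at -5.44 ± 0.09. Peritubular and smooth muscle markers gave 1 higher and 8 lower of 12 tested. Myl9, the myosin regulatory light chain of smooth muscle, fell by 7.27 ± 0.06 from 17.14 and 17.03 to 9.82 and 9.80, but immature Sertoli cells were at 18.14, so this level was lower than in both.

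Fibroblast markers moved almost all in 1 direction. Of 25 fibroblast markers all were tested, 23 were lower and 0 higher by the size rule, with a median of -5.74. Mfap5, a microfibril protein, fell from 18.21 and 18.17 to 6.66 and 6.87. Its means were 12.53 in immature and 14.43 in mature Sertoli cells, so the induced cells lay below both. Dcn, the collagen-binding proteoglycan decorin, was the exception, with a small rise of 0.57 ± 0.06 from 16.53 and 16.46 to 17.07 and 17.05. Of 54 tested mesenchyme, limb and tail transcription factors, 34 were lower and 6 higher, with a median of -1.86, or -1.08 with values under the array median raised to it. Twist2, a basic helix-loop-helix factor of dermis, fell from 13.71 and 13.78 to 5.03 and 5.36, and its relative Twist1 fell by 5.74 ± 0.12. Immature Sertoli cells were at 9.95 for Twist2 and 9.78 for Twist1. Meox2, a homeobox factor of mesoderm, fell by 8.62 ± 0.22 to values under the median.

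Posterior and hindlimb identity genes did not move as a block. Hoxb13 fell by 11.18 ± 0.20, but Hoxd13, the digit Hox gene, rose from 7.53 and 7.39 to 11.74 and 11.65. Pitx1, the hindlimb homeobox gene, rose from 5.48 and 5.36 to 12.62 and 12.55, whereas it stood at 12.84 in MEF and 11.61 in MEF-ieSC. Hoxc13 and Tbx4, another hindlimb factor, fell by 6.29 ± 0.29 and 6.22 ± 0.54 to values under the median. Both were named after their values were seen. Sox6, a factor of cartilage, rose by 4.28 ± 0.14 to 10.71 and 10.72. Of 31 tested factors of the somatic gonad, 7 were higher and 7 lower, with a median of -0.24 that ran from -0.38 with chromosome medians taken out to -0.15 with the mean of a gene's features. Lhx9, a LIM factor needed for the gonadal ridge, rose from 6.36 and 6.83 to 9.87 and 9.93, and Zfpm1, a GATA cofactor, rose by 2.19 ± 0.06. In contrast Emx2, another factor needed for the gonadal ridge, fell by 3.50 ± 0.13 and Osr1 fell by 7.64 ± 0.41, both to values under the median.

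Genes of epithelial differentiation were more often higher than lower. Of 51 tested, 25 were higher and 6 lower, with a median of 0.98, or 2.97 over the 24 left by the stricter filter. Cldn3, a tight junction claudin, rose by 7.05 ± 0.06 from 8.13 and 8.20 to 15.21 and 15.22, above the 12.94 of immature Sertoli cells. Epcam, an epithelial adhesion protein, rose by 3.51 ± 0.23 to 10.24 and 10.39, against 11.30 there. Beside Krt19, Krt20, a keratin of gut epithelium, fell by 3.34 ± 0.11. Krt23, another keratin, read -2.14 ± 0.36, but -0.45 with values under the median raised to it (adjusted p = 0.0764, limma). Cdh1, the epithelial cadherin, was under the median on all 4 arrays.

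Of 26 tested cadherins and catenins, 10 were higher and 10 lower. Celsr1, a planar polarity cadherin, rose from 7.35 and 7.01 to 13.28 and 13.32, and the desmosome proteins Pkp2 and Pkp1 rose by 5.08 ± 0.10 and 4.75 ± 0.10. Cdh13 and Cdh11, cadherins of mesenchyme and vessels, fell by 9.37 ± 0.29 and 6.50 ± 0.09. The second feature of Cdh11 gave a smaller difference of -1.02. Cdh2, the cadherin of Sertoli cells and fibroblasts, stayed high at 14.75 and 14.79 in TTF and 14.51 and 14.57 in TTF-ieSC, and its small fall (adjusted p = 0.0237, limma) was lost under several alternatives.

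The matrix genes split between laminin chains. Of 27 tested basement membrane genes, 11 were higher and 7 lower, with a median of 0.18, or 0.36 with the stricter filter and 0.32 with chromosome medians taken out. Lama1, the laminin alpha chain of embryonic epithelia, rose from 7.32 and 7.51 to 13.72 and 13.76, close to the 13.29 of immature Sertoli cells. Lama2, the laminin alpha chain of muscle and mesenchyme, fell by 6.09 ± 0.08 and Lamb1, a beta chain, fell from 16.34 and 16.30 to 7.81 and 7.92. Immature Sertoli cells were at 15.82 for Lamb1, so the induced cells lay below both. Col4a3, a collagen IV chain of specialised basement membranes, rose by 4.32 ± 0.22. Of 26 proteoglycan genes 2 were higher and 15 lower, with a median of -2.07, and Bgn, the small proteoglycan biglycan, fell by 6.45 ± 0.10 while Acan, the cartilage proteoglycan aggrecan, rose by 4.40 ± 0.06.

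Integrin genes were more often lower than higher. Of 20 integrin genes 4 were higher and 11 lower, with a median of -1.32. Itga3, the laminin-binding alpha 3 chain, rose from 7.99 and 8.10 to 12.60 and 12.59, and Itga11, a collagen receptor of fibroblasts, fell by 6.29 ± 0.09. Tagln, a smooth muscle actin-binding protein in the lists of peritubular markers and serum response targets, fell by 4.66 ± 0.11 from 17.53 and 17.66 to 12.99 and 12.90.

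Ligands, receptors and antagonists of several signalling pathways were exchanged. In the TGF-beta, activin and BMP list 8 of 52 genes were higher and 21 lower, with a median of -0.65. Tgfb2, a secreted TGF-beta, rose by 4.28 ± 0.10 to 14.66 and 14.63, and Ltbp4, which binds latent TGF-beta, rose by 4.82 ± 0.08 on its brightest feature and 1.77 on the least changed of 3. Inhba, the activin beta A subunit, fell from 15.89 and 15.88 to 9.12 and 9.17, and Ltbp2 fell by 8.98 ± 0.07. Immature Sertoli cells were at 16.24 for Inhba.

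In the Wnt list 19 of 52 genes were higher and 16 lower, with a median of 0.18 that turned to -0.17 with chromosome medians taken out and was 0.06 with the stricter filter and 0.10 without TTF replicate 1. Secreted antagonists went both ways. Sfrp5 rose from 6.82 and 7.22 to 14.66 and 14.71, while Dkk3, Dkk2 and Sfrp2 fell by 9.60 ± 0.15, 8.72 ± 0.13 and 7.46 ± 0.06. The ligand gene Wnt6 rose by 5.83 ± 0.10 to 12.89 and 12.91, and Wnt2 fell by 3.12 ± 0.24. Of 14 tested Hedgehog genes 5 were higher and 0 lower, with a median of 0.37, or -0.25 with the stricter filter and 0.20 with chromosome medians taken out. Beside the ligand Dhh, the coreceptor gene Cdon rose by 2.50 ± 0.06 and the cilium kinesin gene Kif7 by 1.95 ± 0.09, and Shh and Ihh, the other 2 ligands, did not reach the tested set.

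Of 23 Notch genes 7 were higher and 5 lower. The ligand genes Dll1 and Dll3 rose by 4.85 ± 0.15 and 4.85 ± 0.07, and Dlk2, a delta-like protein, rose from 9.59 and 9.74 to 15.65 and 15.69. Its relative Dlk1, a marker of fetal stroma, fell from 15.18 and 15.15 to 6.46 and 6.52. Of 28 FGF genes 10 were higher and 6 lower, with a median of 0.15, or -0.09 with the stricter filter, 0.10 with chromosome medians taken out and 0.08 without TTF-ieSC replicate 1. Fgfr3, an FGF receptor, rose by 4.25 ± 0.09 to 13.47 and 13.51, and Fgf7, a growth factor for epithelia made by stroma, fell from 15.89 and 15.59 to 7.27 and 7.42.

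Of 21 IGF and insulin genes 2 were higher and 8 lower, with a median of -0.69. The binding protein genes Igfbp3 and Igfbp4 fell by 9.04 ± 0.10 and 8.11 ± 0.12 to values under the median, while Lin28a was the largest rise. Of 48 genes of PDGF, VEGF, HGF, EGF and neurotrophin signalling 7 were higher and 24 lower, with a median of -1.0, or -2.14 with the stricter filter. Pdgfb rose from 8.55 and 8.69 to 13.97 and 14.04, close to the 14.75 of immature Sertoli cells, and Pdgfa, which Sertoli cells secrete, read 15.69 and 15.61 in TTF and 15.53 and 15.51 in TTF-ieSC (adjusted p = 0.0702). The pleiotrophin gene Ptn fell by 8.01 ± 0.09 and the angiopoietin gene Angpt1 by 6.93 ± 0.06.

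Guidance genes were balanced, with 15 of 62 higher and 19 lower and a median of -0.05. Its sign changed under 3 alternatives, to 0.49 with the stricter filter, 0.01 with chromosome medians taken out and 0.003 without TTF replicate 2, and it was -0.02 without TTF-ieSC replicate 1. Plxnb3, a plexin receptor, rose by 6.74 ± 0.09 to 14.93 and 14.96, against 8.21 in immature Sertoli cells, and the secreted cues Slit2 and Slit3 fell by 5.70 ± 0.06 and 5.33 ± 0.06. Of 40 YAP and serum response targets 4 were higher and 15 lower, with a median of -0.50. Thbs1, a matrix thrombospondin, fell from 17.33 and 17.53 to 9.80 and 9.93, and the immediate early gene Fos rose from 13.32 and 13.18 to 15.85 and 15.76.

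Genes of immune signalling were more often lower than higher. Of 50 cytokine receptor and JAK-STAT genes 8 were higher and 24 lower, with a median of -0.86. Il6, an inflammatory cytokine, fell from 12.94 and 13 to 6.10 and 6.47, and Il6st, its signalling receptor, fell by 3.01 ± 0.06. Il1r1, the interleukin 1 receptor, fell by 9.66 ± 0.62, and its induced arrays were both far under the median at 4.93 and 2.31. Among the rises, Epor, the erythropoietin receptor, went from 8.10 and 8.27 to 13.30 and 13.31, and Tnfrsf19 rose by 6.98 ± 0.13 on its brighter feature and 2.71 on the other.

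Antigen presentation and complement followed the same direction. Of 20 tested genes of MHC and antigen processing 2 were higher and 10 lower, with a median of -0.90. B2m, the light chain of class I molecules, fell from 17.05 and 16.96 to 14.68 on both arrays, and the immunoproteasome gene Psmb8 fell by 2.66 ± 0.06. The class I heavy chain genes H2-D1 and H2-K1, close paralogs whose probes may share signal, differed by -1.48 ± 0.08 and 0.34 ± 0.07. Of 18 complement genes 2 were higher and 10 lower, with a median of -1.77. That median was -2.98 over the 11 left by the stricter filter and -0.95 with values under the array median raised to it. C2, a component of the classical pathway, fell by 6.28 ± 0.07, and C3, the central component, rose by 2.00 ± 0.07 to 13.13 and 13.11, against 14.83 in immature Sertoli cells.

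Secreted protease inhibitors gave 8 higher and 18 lower of 36 tested, with a median of -1.17. Cst12, a cystatin of the testis, rose from 5.32 and 5.37 to 12.83 and 12.95, against 15.51 in immature Sertoli cells. Tfpi, an inhibitor of blood coagulation, fell by 9.05 ± 0.38, and Serping1, the C1 inhibitor, fell by 7.17 ± 0.10.

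Amino acid supply genes were more often higher than lower. Of 39 tested genes of amino acid transport and serine synthesis 16 were higher (41.0%) and 5 lower, with a median of 0.68. Psat1, of serine synthesis, rose from 14.34 and 14.42 to 16.99 and 17.06, above the 14.84 of immature Sertoli cells. Slc6a9, a glycine transporter, rose by 2.60 ± 0.08 and Slc1a1, a glutamate transporter, by 2.91 ± 0.14. In the list of ER stress genes, the asparagine synthetase Asns, the glutathione-degrading enzyme Chac1 and their known regulator Atf4 rose by 2.08 ± 0.09, 2.01 ± 0.08 and 1.18 ± 0.09. Only these 3 of 31 ER genes were higher by the size rule and 4 were lower, among them Ddit3, a stress factor, at -2.06 ± 0.07.

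Fatty acid and lipid droplet genes gave 18 higher and 7 lower of 52 tested, with a median of 0.34. Cidea, a lipid droplet protein, rose from 6.85 and 7.13 to 14.74 and 14.91, against 16.23 in immature Sertoli cells, and the fatty acid elongase gene Elovl7 rose by 4.95 ± 0.08. Glycolysis was balanced, with 7 higher and 8 lower of 34. Within it the isoenzyme genes Aldoc, Eno3 and Ldhb rose by 3.58 ± 0.11, 3.28 ± 0.09 and 3.04 ± 0.07, and the hexokinase gene Hk2 fell by 1.86 ± 0.08. Of 78 respiratory chain genes 4 were higher and 1 lower. The 3 largest rises, Ndufa6 (1.75 ± 0.07), Cyc1 (1.27 ± 0.08) and Atp5g2 (1.20 ± 0.11), lie on chromosome 15, whose genes were shifted as a whole.

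Of 71 ribosomal protein genes 0 were higher and 1 lower, with a median of 0.11, or 0.07 without TTF replicate 2. Antioxidant genes gave 6 higher and 18 lower of 50. Sod3, the extracellular superoxide dismutase, fell from 15.71 and 15.57 to 5.74 and 5.97, and Gstm6, a glutathione transferase of Sertoli cells, rose by 5.83 ± 0.06 to 14.20 and 14.19. Lysosomal genes gave 4 higher and 13 lower of 38, with a median of -0.80, led by the collagen-degrading cathepsin gene Ctsk, which fell from 16.69 and 16.56 to 7.77 and 7.75. Genes of metal handling gave 9 higher and 9 lower of 37. Trf, the iron carrier transferrin that Sertoli cells secrete, rose from 14.21 and 14.05 to 17.99 and 17.97, above the 14.18 of immature Sertoli cells, and Lcn2, a siderophore-binding protein, rose by 6.24 ± 0.08.

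Retinoid genes gave 6 higher and 12 lower of 26. Aldh1a1, which makes retinoic acid, rose from 12.44 and 12.48 to 17.18 and 17.25, near the 17.85 of immature Sertoli cells, while the binding protein genes Crabp1 and Crabp2 fell by 8.55 ± 0.15 and 7.31 ± 0.07. Aldh1a2, another enzyme of that step, fell by 2.30 ± 0.09. Prostaglandin and steroid genes gave 5 higher and 15 lower of 31, with a median of -0.83, or -1.95 with the mean of a gene's features. Ptgs2, the inducible cyclooxygenase, fell from 14.55 and 14.48 to 8.23 and 8.24, and Sult1a1, a sulfotransferase, rose by 4.06 ± 0.08. Ion channel genes gave 11 higher and 19 lower of 47. Clcn2, a chloride channel, rose by 4.35 ± 0.06 to 15.29 and 15.27, and Kcnj2, a potassium channel, fell from 8.52 and 8.33 to 3.00 and 2.45.

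Chromatin regulators were more often higher, with 16 higher and 7 lower of 61 and a median of 0.35. Ezh2, the Polycomb methyltransferase of dividing cells, rose from 10.19 and 10.17 to 12.50 and 12.51, close to the 12.60 of immature Sertoli cells, and Uhrf1, which guides maintenance DNA methylation, rose by 3.25 ± 0.10. Hmgb3 and Hmgn5, chromatin proteins encoded on the X chromosome, rose by 3.30 ± 0.06 and 3.60 ± 0.09. Nuclear receptors gave 3 higher and 10 lower of 33, and the immediate early receptor gene Nr4a2 fell from 13.84 and 13.83 to 9.82 and 9.69. Of 35 p53 targets and CDK inhibitors 7 were higher and 10 lower. Cdkn2a, which marks senescence in culture, fell from 17.18 and 17.14 to 14.34 and 14.32, and Perp, a desmosome protein and p53 target, rose by 5.29 ± 0.08.

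**Figure D3:**
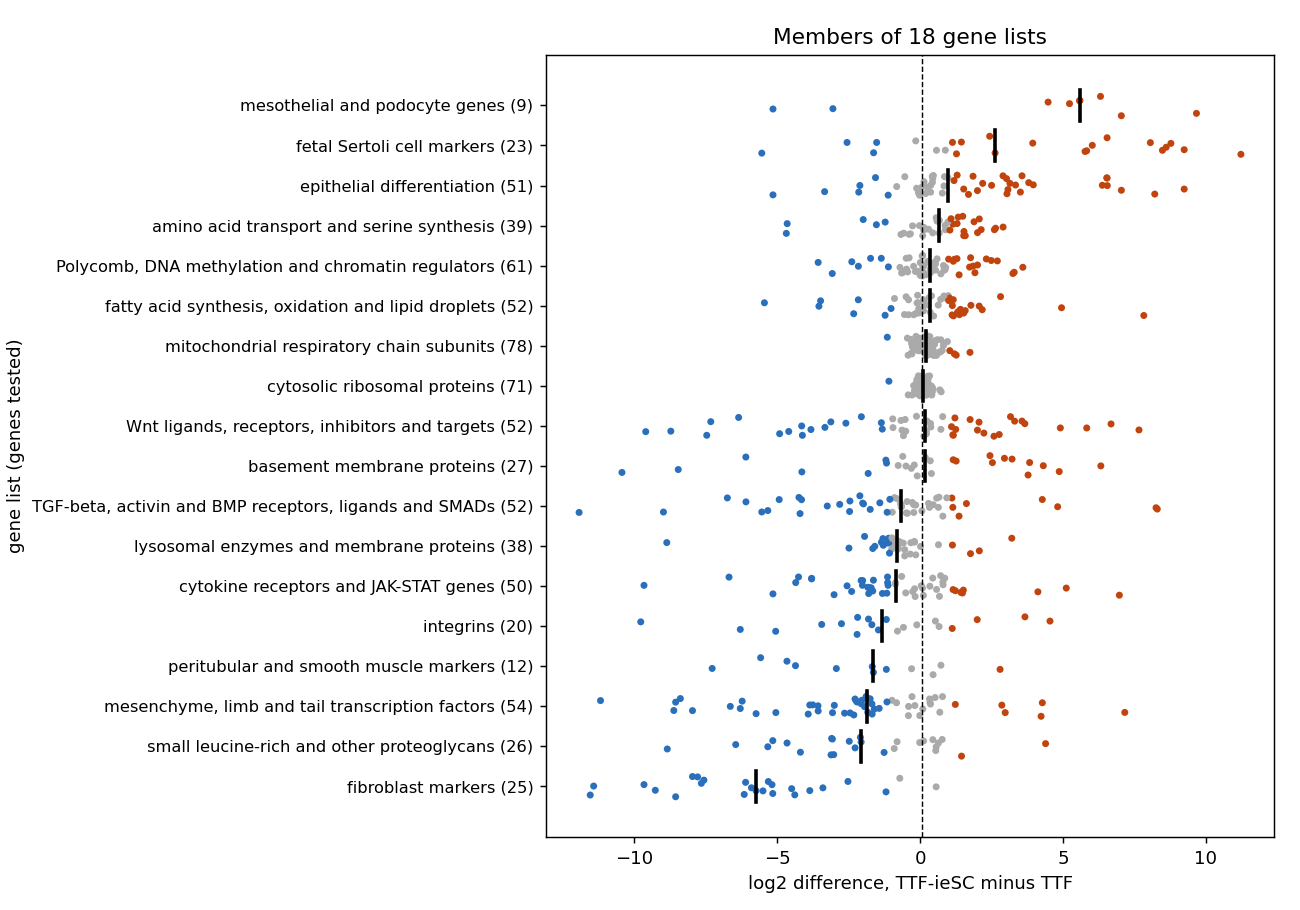
Log2 difference of TTF-ieSC minus TTF (x axis) for each tested member of 18 gene lists (y axis, number tested in brackets). Orange points were called and at least 1 higher, blue points called and at least 1 lower, grey points neither, black bars are list medians and the dashed line is the median of all genes. Fibroblast markers lie almost wholly at the left (median -5.74), mesothelial and fetal Sertoli genes mostly at the right (5.58 and 2.63), and ribosomal proteins within about 1 log2 unit of 0.

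Genes of chromosomes 15, 19 and 17 were shifted upward. The median log2 difference was 0.48 over 601 genes of chromosome 15, 0.45 over 508 of chromosome 19 and 0.20 over 746 of chromosome 17, against 0.07 over all genes and 0.15 on chromosome 7, the next. Each TTF-ieSC array against the TTF mean gave 0.48 and 0.50 for chromosome 15 and 0.46 and 0.47 for chromosome 19, so both arrays showed it. On chromosome 15, 70.2% of genes lay above 0 and on chromosome 19 71.1%, against 53.3% overall. With genes split into 10 blocks by position, 10 blocks of chromosome 15, 9 of chromosome 19, 8 of chromosome 7 and 7 each of chromosomes 17 and 11 had a median above that of all genes.

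The same 3 chromosomes led when TTF-ieSC was set against each of the 5 other groups it was compared with (TTF, MEF, gonad, immature and mature Sertoli cells), comparisons that share the TTF-ieSC arrays. In MEF-ieSC against MEF, which shares no array with TTF-ieSC against TTF, the medians were 0.44, 0.25 and 0.38. Between the fibroblasts, TTF against MEF, shifts of single chromosomes from the median of all genes ran from -0.09 to 0.06. Among genes above 11 on all 4 arrays the median was 0.475 on chromosome 15 and 0.451 on chromosome 19. Genes named above that lie on chromosome 15 include Amhr2, Krt18, Dhh, Pdgfb and Atf4, whose rises were larger than that. Angpt1, also named above and on chromosome 15, went the other way, at -6.93 ± 0.06. Of the 601 genes of chromosome 15, 195 were higher and 79 lower by the size rule. Copy number was not measured here, and its part in the result was not tested.

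**Figure D4:**
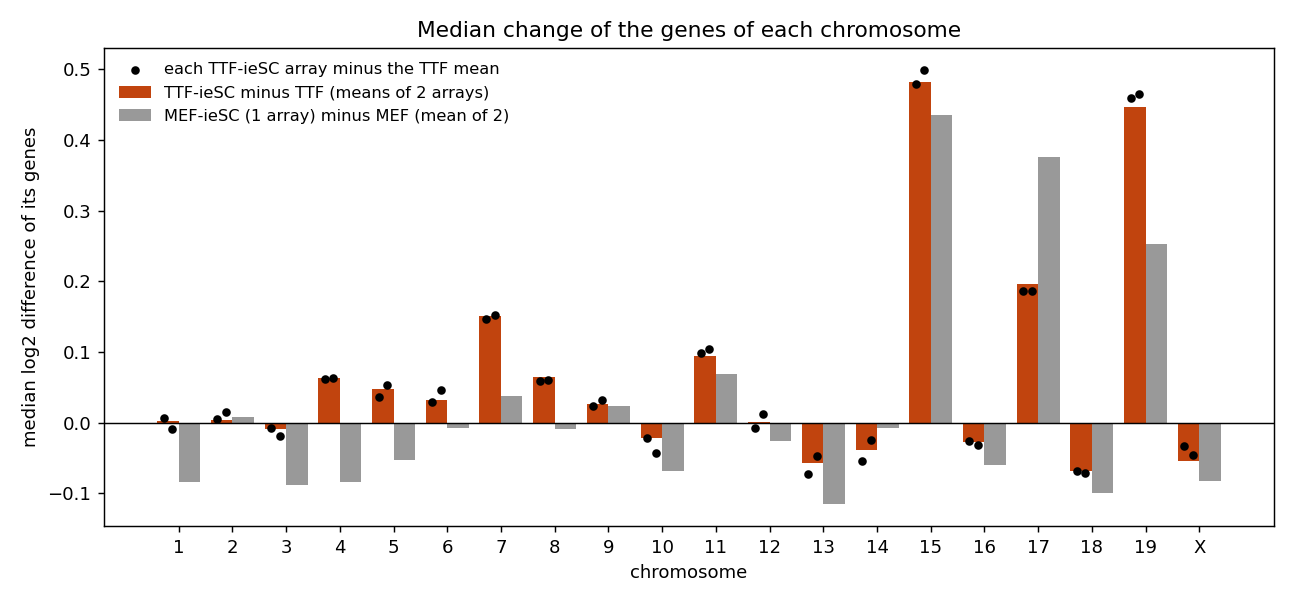
Median log2 difference (y axis) of the tested genes of each chromosome (x axis) for TTF-ieSC minus TTF (orange bars, means of 2 arrays) and MEF-ieSC minus MEF (grey bars, 1 induced array). Black points are each TTF-ieSC array minus the TTF mean. Chromosomes 15, 19 and 17 stand highest in both, at 0.48, 0.45 and 0.20 in the TTF-derived cells and 0.44, 0.25 and 0.38 in the MEF-derived cells.

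The induction from TTF was then compared with that from MEF, with the difference between the 2 tested in the same fit. Of the 5251 genes called and changed by 1 or more from TTF, 3297 changed that much in the same direction from MEF and 77 in the opposite direction. The share of all tested genes that changed that much from MEF, in either direction, is not given here. These counts therefore describe the overlap and do not show how far it departs from that share. The difference of the inductions itself was called for 8679 genes (58.8%), and by 1 or more for 1419 genes with the higher difference from TTF (9.61%) and 1524 with the higher difference from MEF (10.3%). Of 39 amino acid genes, 15 were in the first group and 3 in the second. Of 20 MHC genes, 1 was in the first group and 11 in the second. MEF-ieSC is 1 array, so its spread was taken from the other groups.

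Some list members moved in opposite directions, and the 5 named here were chosen after their values were seen. Pitx1 rose by 7.17 from TTF and fell by 1.23 from MEF, and the induced cells then lay at 12.59 and 11.61. Ctsc, a lysosomal dipeptidyl peptidase, rose by 3.21 from TTF and fell by 2.05 from MEF, ending at 11.93 and 11.51. Slc38a4, an imprinted amino acid transporter gene, started at 8.24 in TTF and 12.99 in MEF and ended at 10.13 and 9.82. C4b, a complement component, fell by 2.98 from 13.48 in TTF and rose by 1.81 from 9.03 in MEF, ending at 10.51 and 10.84. H2-Ab1, a class II chain, started at 14.06 and 9.93 and ended at 12 and 11.99.

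**Figure D5:**
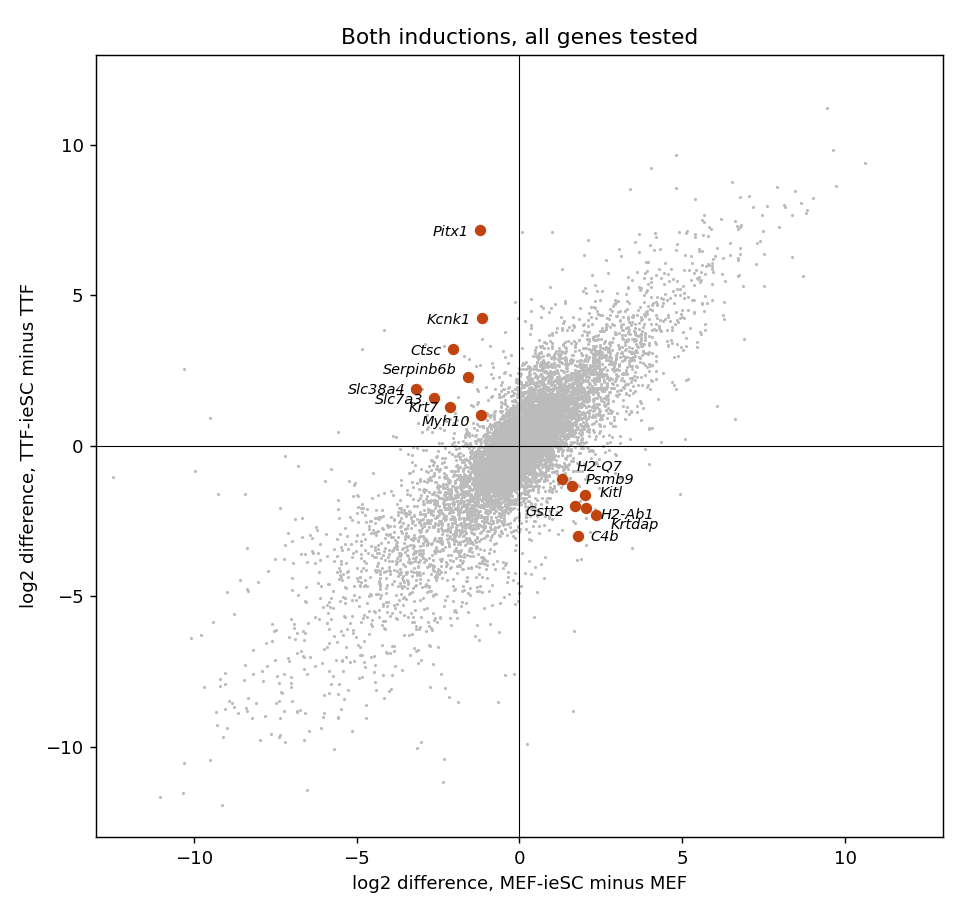
Log2 difference of TTF-ieSC minus TTF (y axis) against that of MEF-ieSC minus MEF (x axis) for the 14761 tested genes. Orange points are the 15 list members called and changed by 1 or more in opposite directions, from Pitx1 (7.17 and -1.23) to C4b (-2.98 and 1.81).

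Where a gene had several features they seldom disagreed in direction, but more often in size. Of 4364 genes with 2 or more member features, 1449 were called and changed by 1 or more, and in 1388 of these (95.8%) all features lay on the same side. In 1016 of the 1449, all features were called and changed by 1 or more the same way. Features called by 1 or more in opposite directions were found for 12 genes. The membership threshold was at the array median. Hbq1b and Nat8f2 were just inside it, with TTF-ieSC arrays at 7.49 and 7.65 and at 7.57 and 7.49. Just outside were Htr1b, with TTF arrays at 7.49 and 7.49, and Vmn2r85, with TTF-ieSC arrays at 7.72 and 7.49. Of the member features 18999 passed on all 4 arrays, 1322 through the TTF-ieSC arrays alone and 1577 through the TTF arrays alone, and the last 2 sets had to differ.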

How the data were processed

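RNA of 13 samples was measured on 1-colour arrays. The values are log2 signals as deposited by the authors, who made the distributions of the arrays nearly identical before deposit. The submitters' processing notes name limma without saying for which step. The sources used here do not say how background was corrected or whether low values were floored. For arrays, their number (2 a group, 1 for MEF-ieSC) limits the precision.

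Features were named from the platform's annotation, updated through RefSeq (29050 by accession, 2061 by symbol, 349 by an older name, 5 kept as given; 31511 of 62976 features had no name). Where a gene had several member features, the one brightest on average across the 13 arrays stood for it. All groups were fitted together with limma 3.58.1 in R 4.3.3 (lmFit and eBayes), with Benjamini-Hochberg adjustment over 14761 genes. The difference between the inductions was a contrast of the same fit. On simulated data, with 50 genes changed at each size, 68% of changes of 0.5, 92% of 1, 96% of 2 and 100% of 4 log2 units were called, and 9 of 14561 unchanged genes. Far fewer genes were changed there than were called in the data, and noise was drawn independently for each gene and array. These shares therefore check the fit under that setting and do not give its power or error in these data.

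Genes named are the 5 factors, the 15 largest rises and falls whose arrays did not overlap (clone and predicted names left out), the first 2 members and up to 3 largest rises and falls of each list, and 2 genes on each side of the membership threshold. Genes named otherwise are said to be so. The members and gene lists were chosen with earlier results of these data known. Alternatives covered scaling, the filter, dim values, the feature per gene, the arrays fitted, the variance model, the threshold and each array left out. 1 gene list is not reported here.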

Additional observations from a re-analysis of the deposited data

Results flagged for a closer look

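The following genes differed between the induction from TTF and that from MEF by a contrast tested in the same limma fit, and each value is the log2 difference from TTF minus that from MEF. Adjusted p ran from 3.67e-10 (Ctsc) to 0.0033 (Tlx2). MEF-ieSC is 1 array, so its spread is that of the other groups.

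Among the factors and the largest rises, the value was 1.35 for Nr5a1, 4.87 for Wt1, 1.78 for Ptgds, 5.20 for Krt18 and 2.24 for Tesc. It was 3.74 for Gpm6a, 5.15 for Mest, 1.24 for Bmp7, 1.49 for Amhr2 and 2.82 for Cgn. Tlx2 alone of these rose more from MEF, at -1.07.

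Among the largest falls, all those listed fell further from TTF. The largest rises and falls were picked by their change from TTF, which by itself favours a larger change from TTF than from MEF. The value was -2.80 for Grem1, -1.21 for Thy1, -4.91 for Mfap5, -8.84 for Hoxb13 and -8.07 for Prg4. It was -4.38 for Ifi204, -6.89 for Xdh, -10.13 for Ifi202b, -6.83 for Thbs4, -2.63 for Ccn5, -3.18 for Sod3 and -1.79 for Itgbl1. Ifi202b, an interferon-inducible gene, was under the median in MEF and in MEF-ieSC, at 5.44 and 5.66.

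Of the list members that changed in opposite directions, 7 fell from TTF and rose from MEF. The value was -4.78 for C4b, -4.65 for Krtdap, -4.11 for H2-Ab1, -3.69 for Gstt2, -3.64 for Kitl, -2.94 for Psmb9 and -2.42 for H2-Q7. The other 8 rose from TTF and fell from MEF, at 2.20 for Myh10, 3.44 for Krt7, 3.87 for Serpinb6b, 4.21 for Slc7a3, 5.07 for Slc38a4, 5.26 for Ctsc, 5.39 for Kcnk1 and 8.39 for Pitx1.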

How the results depend on the processing

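Quantile normalization and a common 75th percentile gave the same counts as reported. This was fixed in advance, because the deposited arrays already had nearly identical distributions. Leaving out each array in turn gave 10969 to 12012 genes called, 2642 to 2668 higher and 2586 to 2601 lower by 1 or more, and 7851 to 9118 genes differing between the inductions. Counts moved by over 1.5 times when every feature was tested on its own (17731 called, of 22392 features), when genes had to exceed the 75th percentile (1662 lower by 1 or more, of 9970 genes tested), and when limma's treat required a difference above 1 (4291 called, 1595 differing between the inductions). Of 316 named genes that were called, 259 kept their direction and call under every alternative that held them, and 0 changed direction. A gene dropped by a stricter filter was not compared there, and the fit of every feature on its own was left out. Many of these genes were named for their large change, which makes a reversal unlikely. Of named genes that were not called, Dmrt1 turned to -0.31, Wnt1 to -0.28 and Krt5 to -0.34 with chromosome medians taken out, an alternative chosen after seeing the data, and Rpl3 turned to 0.27 with the mean of a gene's features. The cause was not tested. The difference between the inductions could not be fitted on the 4 TTF and TTF-ieSC arrays alone. No paired analysis was possible because the labels give no replicate numbers and do not say which arrays share a source. The arrays' titles are numbered 1 to 16, and 6 groups have 1 array numbered up to 8 and 1 from 9. Between these groups, the differences of such arrays had a correlation over genes of 0.05 to 0.28 in 15 pairs of groups. With this split as a block, chosen after seeing the data, 12127 genes were called, 2654 were higher and 2596 lower by 1 or more, and 9367 differed between the inductions.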

Other observations

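The genes in these paragraphs were chosen after their values were seen. Cystatin genes of the reproductive tract were higher in TTF-ieSC beside Cst9 and Cst12. Cstdc1 rose by 7.68 ± 0.12, from 6.37 and 6.65 to 14.16 and 14.24, with 12.97 in immature and 16.34 in mature Sertoli cells. Cst11 rose from 6.40 and 4.85 to 11.84 and 11.86. Cst3, the cystatin made by most cells, fell by 0.81 ± 0.06 from 17.13 and 17.14 to 16.32 and 16.33.

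All 3 chains of collagen IX, a collagen of cartilage, were higher. Col9a3 rose by 7.94 ± 0.20, from 5.95 and 5.40 to 13.60 and 13.63, and Col9a1 rose by 6.79 ± 0.36 to 13.14 and 13.16. Col9a2 rose by 4.39 ± 0.07 to 12.81 and 12.89. Immature Sertoli cells were at 6.06 for Col9a3 and the gonad at 10.48.

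Gata1, a GATA factor of blood cells and of Sertoli cells after birth, rose from 2.93 and 5.35 to 11.59 and 11.61. Its mean was 9.90 in immature and 13.46 in mature Sertoli cells. Crb2, an apical polarity protein, rose by 6.54 ± 0.05 to 13.94 and 13.87, above the 9.45 of immature Sertoli cells. Wt1os, the antisense RNA of Wt1, rose by 6.47 ± 0.13 to 12.41 and 12.35, and whether its feature can be told apart from Wt1 by strand is not given.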
